A study of Mus musculus with 9 samples.

Results

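The genes described here are glycolytic enzymes and other targets of the hypoxia-inducible factors (HIFs), together with Hif1a and Epas1, which encode the oxygen-regulated subunits HIF1α and HIF2α. The list held 36 genes, and a gene was read from the probe set annotated to its symbol alone, or from the brightest such probe set where there were several. In this way 35 of the 36 were measured among 19938 genes, 13 of them in glycolysis, 20 other targets and the 2 factors; Gpi1, the enzyme after hexokinase, has no probe set annotated to it alone. RNA came from transformed mouse embryonic fibroblasts (MEFs) on the C57B/L6 background, with 3 arrays for each of 3 genotypes. The methods describe primary MEFs for some figures and MEFs immortalized with SV-40 large T antigen for others. Their section on the arrays does not say which were used. TM MEFs carried mutations in both ERO1 isoforms and lacked PRDX4, whose gene is X-linked. DM MEFs carried the mutations of both ERO1 isoforms with intact PRDX4, and WT MEFs were the reference. The sample labels call the reference wild type, whereas the methods describe control MEFs that were heterozygous for the Ero1α mutation and homozygous for the Ero1β mutation, so the Ero1β allele may be shared by all 3 genotypes. ERO1 and PRDX4 are oxidases of the endoplasmic reticulum (ER) that drive disulfide bond formation. No source states if the RNA samples of 1 genotype were taken from separate cultures or embryos. The p-values therefore cover the spread among arrays, which may be technical, and genotype and cell line cannot be told apart. The oxygen tension of the cultures was not found in those sources.

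HIFs are dimers of an oxygen-regulated α subunit and a stable partner, ARNT. In the presence of oxygen, prolyl hydroxylases mark the α subunit for capture by the VHL ubiquitin ligase and destruction. When oxygen falls the α subunit persists and activates genes that carry the core element ACGTG or GCGTG. Among these genes are the enzymes that turn glucose into lactate, the pump that exports the lactate, and regulators of pH, glycogen, mitochondria and blood vessel growth. HIF is controlled mainly at the level of protein, which these arrays did not measure. Ero1a, which encodes the ERO1α oxidase, is itself a HIF target.

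The mutated genes were checked first. Prdx4 was at 5.96, 6.75 and 6.17 in TM MEFs, 10.71, 10.45 and 10.88 in DM MEFs and 10.58, 10.66 and 10.44 in WT MEFs, all in log2 RMA units. Ero1a fell by 2.80 in TM MEFs and fell by 2.40 in DM MEFs against WT on the log2 scale. Ero1b showed no loss of signal, with means of 7.94 in TM, 7.70 in DM and 7.65 in WT MEFs. A loss could hardly have shown here, because the DM and WT means lay within the array medians of 7.62 to 7.72. The paper also reports that MEFs have no detectable ERO1β, and the reference may carry the same Ero1β allele. Over 11 fibroblast markers the mean level was 11.3 on all TM arrays, 10.4 to 10.5 on DM arrays and 10.7 on WT arrays. Vim and Fn1 were above 13 on every array, whereas Lum, a proteoglycan gene, averaged 6.86 in TM, 4.91 in DM and 4.80 in WT MEFs, below the array medians of 7.62 to 7.72. Of the 11, 4 rose in TM MEFs (Thy1 by 2.93, Lum by 2.06, Dcn by 1.83 and Pdgfrb by 1.23) and S100a4 fell by 1.46. In DM MEFs 2 rose (Pdgfrb by 1.18 and Dcn by 1.14) and 3 fell (S100a4 by 2.28, Pdgfra by 1.91 and Col1a2 by 1.71). Epithelial and mesothelial markers averaged 7.33 to 7.46 in TM, 9.28 to 9.42 in DM and 7.99 to 8.02 in WT MEFs over 10 genes. In TM MEFs 2 of these 10 fell (Msln, at -3.61, and Krt19, at -1.81) and 0 rose, by unadjusted p with the fold limit too. In DM MEFs 5 rose (Upk1b by 5.57, Upk3b by 5.07, Krt18 by 2.69, Cdh1 by 1.14 and Krt7 by 1.01) and Msln fell by 1.43. Over all genes 3.56% fell and 5.59% rose in TM MEFs, and 5.67% fell and 5.28% rose in DM MEFs. The cells of both mutants therefore differed from the WT cells in cell type markers as well as in the mutated genes. Xist, read as a check of sex, was at 12.50, 12.54 and 12.63 in DM MEFs, 6.86 log2 units above WT. It was at 5.69, 5.64 and 5.83 in TM MEFs and 5.65, 5.76 and 5.69 in WT MEFs. Sex therefore cannot be told apart from genotype in either comparison with DM MEFs. The part of these differences in the results below was not tested. In RNA from a whole culture a change in the share of a cell type and a change in RNA per cell cannot be told apart. Endothelial, leukocyte and skeletal muscle markers had 0 calls in either mutant against WT by limma, by unadjusted p with the same fold limit, and by Student's t-test.

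A gene was called when its adjusted p was under 0.05 and it differed by more than 1.5-fold. In TM MEFs against WT MEFs, 10 of the 35 genes fell and 2 rose, where 3.56% of all genes fell and 5.59% rose. In DM MEFs against WT MEFs, 8 fell and 1 rose, where 5.67% of all genes fell and 5.28% rose. Between the mutants, 9 were lower and 5 were higher in TM than in DM MEFs, where 3.61% of all genes were lower and 4.68% higher. The share that fell in TM MEFs was 28.6%, and the share that rose, 5.71%, was near the background. By adjusted p alone, 25 of 35 were lower and 5 higher in TM than in WT MEFs (background 18.0% and 13.8%), and 20 were lower and 3 higher in DM than in WT MEFs (background 19.8% and 17.0%). The comparisons with WT share the WT arrays, and their values are given side by side.

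The genes with the largest differences between TM and WT MEFs that have a promoter in the RefSeq table are shown first by sequence, because HIF acts through a short core element there. Each window runs from 250 bases before to 50 after the annotated start, 5′ to 3′ on the strand of the gene, in build GRCm38.p6, and capitals mark ACGTG or GCGTG read on either strand (CACGT and CACGC on the other strand).
Slc16a3 (chr11:120948817-120949116, plus strand): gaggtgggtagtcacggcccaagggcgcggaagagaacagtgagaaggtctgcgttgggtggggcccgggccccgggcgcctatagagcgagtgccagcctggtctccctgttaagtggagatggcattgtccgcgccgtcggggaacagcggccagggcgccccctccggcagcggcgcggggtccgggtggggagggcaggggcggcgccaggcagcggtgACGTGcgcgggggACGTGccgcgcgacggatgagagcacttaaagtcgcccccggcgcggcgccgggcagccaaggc
Adm (chr7:110627407-110627706, plus strand): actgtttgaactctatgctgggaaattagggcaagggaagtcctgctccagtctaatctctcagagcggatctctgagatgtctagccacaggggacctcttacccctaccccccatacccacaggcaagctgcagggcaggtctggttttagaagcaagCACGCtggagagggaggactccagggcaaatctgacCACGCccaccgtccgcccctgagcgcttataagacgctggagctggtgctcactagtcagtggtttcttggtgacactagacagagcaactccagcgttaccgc
Bnip3 (chr7:138909457-138909756, minus strand): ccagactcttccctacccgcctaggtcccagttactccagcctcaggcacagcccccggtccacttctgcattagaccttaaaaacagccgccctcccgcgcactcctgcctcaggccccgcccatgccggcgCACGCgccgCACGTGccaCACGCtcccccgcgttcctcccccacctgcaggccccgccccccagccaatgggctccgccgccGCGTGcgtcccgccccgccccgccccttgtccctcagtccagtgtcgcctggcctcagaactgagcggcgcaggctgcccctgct
Pdk1 (chr2:71872974-71873273, plus strand): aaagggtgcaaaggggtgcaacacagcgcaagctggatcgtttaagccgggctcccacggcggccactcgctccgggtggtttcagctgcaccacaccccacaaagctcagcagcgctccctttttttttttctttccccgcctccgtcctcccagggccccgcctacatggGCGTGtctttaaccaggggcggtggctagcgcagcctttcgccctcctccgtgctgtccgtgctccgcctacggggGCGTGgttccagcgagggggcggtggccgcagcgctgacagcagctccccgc
Slc16a3 carries ACGTG at 2 places close to the start site, Adm has 2 copies of GCGTG on the opposite strand, Bnip3 has 5 overlapping or neighbouring matches that include the palindrome CACGTG, and this Pdk1 window has 2 copies of GCGTG. Adm rose and the other genes shown fell in TM MEFs. These genes were picked by the size of their difference, and whether the core goes with a direction was not tested. A second Pdk1 window had no match.

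Over the list, 32 of the 36 genes matched 47 windows in this table, and none was found for Epas1, Bnip3l, Stc1 and Ndrg1. The core was present in 36 of the 47 windows (76.6%), against 43.8% of all 32851 windows. ACGTG alone was in 53.2% of the windows of the list and 19.6% of all windows, and CACGTG in 6 windows of the list and 7.15% of all windows. The 2 sets of windows differ in base composition, with a median GC content of 64.7% in the windows of the list and 52.7% in all windows, and a median of 23 and 7 CpG steps, which the core contains. The share with the core was alike in glycolysis, 16 of 21 windows, and in the other targets, 19 of 25 windows.

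Hif1a RNA was above its WT level in both mutants. It was at 12.47, 12.59 and 12.65 in TM MEFs, 12.36, 12.40 and 12.49 in DM MEFs and 12.11, 12.03 and 12.03 in WT MEFs. Neither mutant overlapped WT, and the TM and DM arrays overlapped each other. The log2 differences from WT were 0.51 ± 0.06 in TM MEFs (SE, adjusted p = 4.16e-05) and 0.36 ± 0.06 in DM MEFs (adjusted p = 0.000638), both inside the 1.5-fold limit. Epas1, which encodes the subunit best known from endothelium, lung and kidney, differed in sign between the mutants. Epas1 was at 9.07, 8.98 and 8.99 in TM MEFs, 8.04, 8.27 and 7.91 in DM MEFs and 8.29, 8.47 and 8.42 in WT MEFs. All TM arrays lay above all others and all DM arrays below the WT arrays. The gene rose by 0.62 ± 0.09 against WT in TM MEFs (adjusted p = 0.000104), was at -0.32 ± 0.09 in DM MEFs (adjusted p = 0.0111) and was 0.94 ± 0.09 higher in TM than in DM MEFs (adjusted p = 2.87e-06). Without WT replicate 1 the TM difference from WT was 0.57 and just inside the fold limit.

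**Figure D1:**
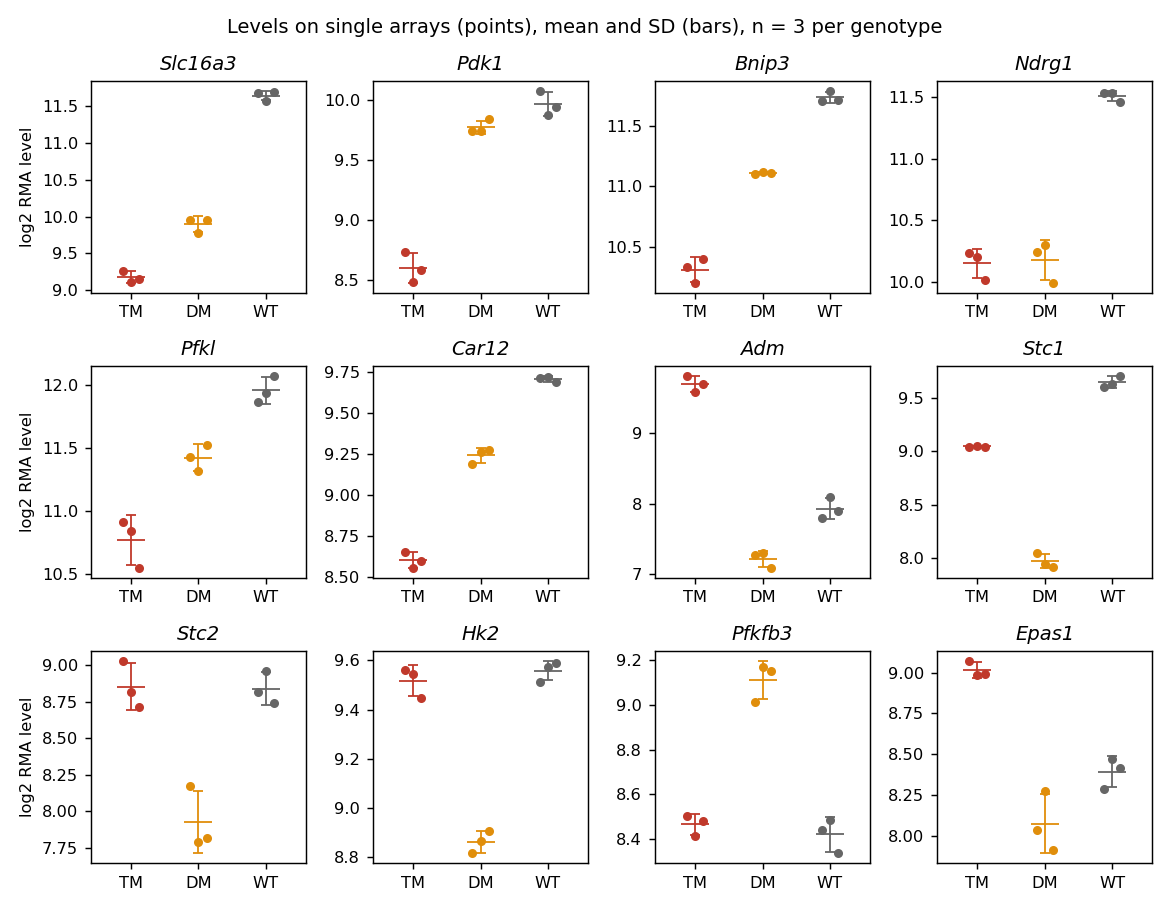
Log2 RMA level (y axis of each panel, its own range) of 12 genes on each array, with TM left, DM in the middle and WT right; points are arrays and bars the mean and SD of 3. Slc16a3 is lowest in TM and highest in WT, Adm is highest in TM, and Stc1 is lowest in DM.

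In TM MEFs glycolytic genes were mostly below WT by a modest amount. Of the 13 measured, 2 fell (Pfkl and Pfkp) and 0 rose, where 3.56% of all genes fell and 5.59% rose. The count of rises was also 0 by unadjusted p with the fold limit and by Student's t-test. By adjusted p alone 10 of 13 were lower (background 18.0%), and the median difference from WT was -0.46, against -0.03 over all genes. In DM MEFs Hk2 fell and Pfkfb3 rose, where 5.67% of all genes fell and 5.28% rose. By adjusted p alone 7 of 13 were lower (background 19.8%), and the median was -0.21, against 0.02 over all genes. That median was -0.11 after cyclic loess normalization, and median centring added falls of Pgam1 (-0.59) and Pkm (-0.61) in TM MEFs and of Pfkl (-0.61) in DM MEFs.

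Phosphofructokinase catalyses the committed step of glycolysis. Pfkl, its liver-type subunit, had the largest TM difference of the 13 genes. It was at 10.92, 10.84 and 10.55 in TM MEFs, 11.43, 11.31 and 11.52 in DM MEFs and 11.86, 11.94 and 12.07 in WT MEFs. The 3 genotypes did not overlap and stood in the order TM, DM, WT. Pfkl was 2.28-fold lower in TM than in WT MEFs (log2 difference -1.19 ± 0.10, adjusted p = 7.9e-07), while its difference in DM MEFs was -0.53 ± 0.10 (adjusted p = 0.000702), inside the fold limit. It was also lower in TM than in DM MEFs, by -0.65 ± 0.10 (adjusted p = 0.000185), and by -0.54 without TM replicate 3, which is inside the limit. Pfkp, the platelet-type subunit, was at 9.65, 9.46 and 9.66 in TM MEFs, 10.35, 10.26 and 10.30 in DM MEFs and 10.26, 10.44 and 10.20 in WT MEFs. Its TM arrays lay apart from all others, and the DM and WT arrays overlapped. Pfkp fell by 0.71 ± 0.08 against WT in TM MEFs (adjusted p = 1.23e-05) and was 0.72 ± 0.08 log2 units below its DM level (adjusted p = 1.26e-05), with 0.00 ± 0.08 between DM and WT MEFs (adjusted p = 0.972).

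Pfkfb3 and Pfkfb4 encode the enzymes that make and remove the sugar bisphosphate that activates phosphofructokinase. Pfkfb3 was at 8.50, 8.42 and 8.48 in TM MEFs, 9.01, 9.17 and 9.15 in DM MEFs and 8.44, 8.49 and 8.34 in WT MEFs. Only the DM arrays stood apart, above the rest. Pfkfb3 rose in DM MEFs by 0.69 ± 0.06 against WT (adjusted p = 2.83e-06), and its TM difference was 0.04 ± 0.06 (adjusted p = 0.684). The TM level was lower than the DM level by -0.64 ± 0.06 (adjusted p = 6.54e-06). Pfkfb4 was similar in the mutants, at -0.43 ± 0.07 in TM and -0.41 ± 0.07 in DM MEFs against WT, both past the adjusted p and inside the fold limit.

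Hexokinase traps glucose in the cell as glucose phosphate. Hk2, its inducible form, was at 9.56, 9.55 and 9.45 in TM MEFs, 8.82, 8.87 and 8.91 in DM MEFs and 9.51, 9.57 and 9.59 in WT MEFs. The DM arrays were the low ones, and the TM and WT arrays overlapped. Hk2 fell in DM MEFs by 0.70 ± 0.06 (adjusted p = 8.63e-07), differed by -0.04 ± 0.06 in TM MEFs (adjusted p = 0.678), and was 0.66 ± 0.06 higher in TM than in DM MEFs (adjusted p = 1.91e-06). Hk1, the form used in most tissues, is uncertain. Its brightest probe set gave 0.05 ± 0.08 in TM and -0.07 ± 0.08 in DM MEFs against WT, but this probe set is annotated through 1 sequence record only. That record is shared by 18 probe sets. Of these, 16 carry several genes, all of them naming the ribosomal gene Rpl17, and the rest are the 2 annotated to Hk1 alone. The other Hk1 probe set fell by 0.73 ± 0.06 in TM MEFs (adjusted p = 1.13e-06) and was at -0.33 ± 0.06 in DM MEFs (adjusted p = 0.000958).

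The enzymes below phosphofructokinase differed from WT in TM MEFs by less than the fold limit, except that Pgam1 and Pkm passed it under median centring, and Pkm without TM replicate 1 (-0.61), TM replicate 2 (-0.59) or WT replicate 1 (-0.61). Aldoa and Aldoc encode aldolases, which split the hexose into triose phosphates, and were at -0.38 ± 0.07 and -0.50 ± 0.09 in TM MEFs, and at -0.17 ± 0.07 and 0.11 ± 0.09 in DM MEFs. Aldoc was lower in TM than in DM MEFs (-0.61 ± 0.09, adjusted p = 0.000179), a call lost without TM replicate 2 (-0.56), DM replicate 1 (-0.58) or DM replicate 3 (-0.57). Tpi1, which interconverts the trioses, was at -0.50 ± 0.06 in TM and -0.25 ± 0.06 in DM MEFs. Pgk1, which makes the first ATP of the pathway, was at -0.46 ± 0.06 in TM and -0.14 ± 0.06 in DM MEFs. Pgam1, phosphoglycerate mutase, was at -0.54 ± 0.06 in TM and -0.37 ± 0.06 in DM MEFs. Pkm, the pyruvate kinase of fibroblasts, was at -0.56 ± 0.08 in TM and -0.48 ± 0.08 in DM MEFs. Ldha, which turns pyruvate into lactate, was at -0.28 ± 0.06 in TM and -0.21 ± 0.06 in DM MEFs. From Aldoa to Ldha every TM difference passed the adjusted p, and among the DM differences those of Aldoa, Aldoc and Pgk1 did not.

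**Figure D2:**
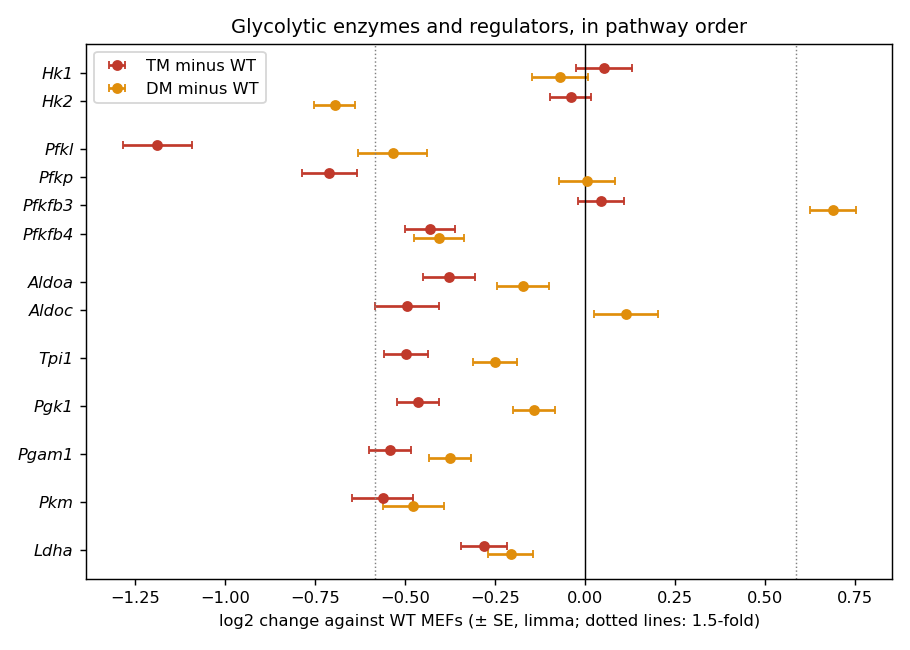
Log2 difference from WT (x axis, ± SE from limma) of 13 glycolytic genes in pathway order, TM above DM for each gene; dotted lines mark 1.5-fold. Pfkl at -1.19 and Pfkp at -0.71 pass the limit in TM MEFs, and Hk2 at -0.70 and Pfkfb3 at 0.69 pass it in DM MEFs; Hk1 is drawn from its brightest probe set.

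Of the 20 other targets, 8 fell (40.0%) and 1 rose (5.0%) in TM MEFs, where 3.56% of all genes fell and 5.59% rose. The share that rose was near the background. The median difference from WT was -0.49, against -0.03 over all genes. In DM MEFs 7 fell and 0 rose, where 5.67% of all genes fell and 5.28% rose. The median there was -0.34, against 0.02 over all genes. The count of rises in DM MEFs was 0 by unadjusted p with the fold limit and by Student's t-test too. Between the mutants 5 were lower and 3 higher in TM than in DM MEFs, where 3.61% of all genes were lower and 4.68% higher.

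Slc16a3 and Pdk1 decide the fate of pyruvate. Slc16a3 encodes MCT4, the transporter that exports lactate from glycolytic cells, and had the largest fall of the list in either mutant. It was at 9.27, 9.12 and 9.15 in TM MEFs, 9.96, 9.77 and 9.96 in DM MEFs and 11.68, 11.57 and 11.70 in WT MEFs. The genotypes did not overlap, and both mutants lay far below WT. It was 5.55-fold lower in TM than in WT MEFs (log2 difference -2.47 ± 0.07, adjusted p = 4.53e-11) and 3.37-fold lower in DM than in WT MEFs (-1.75 ± 0.07, adjusted p = 8.96e-10). The TM level was lower than the DM level by -0.72 ± 0.07 (adjusted p = 5.15e-06). Pdk1, the kinase that keeps pyruvate out of the mitochondrial citrate cycle, was at 8.74, 8.49 and 8.59 in TM MEFs, 9.74, 9.74 and 9.84 in DM MEFs and 10.08, 9.88 and 9.94 in WT MEFs. Here the TM arrays stood alone, well under every other array. Pdk1 was 2.57-fold lower in TM than in WT MEFs (-1.36 ± 0.08, adjusted p = 2.22e-08) and 2.25-fold lower in TM than in DM MEFs (-1.17 ± 0.08, adjusted p = 1.13e-07), with -0.19 ± 0.08 in DM MEFs against WT (adjusted p = 0.064).

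Car9 and Car12 encode carbonic anhydrases of the cell surface that help glycolytic cells to keep their pH. Car12 was at 8.65, 8.55 and 8.60 in TM MEFs, 9.19, 9.26 and 9.27 in DM MEFs and 9.72, 9.72 and 9.69 in WT MEFs. The genotypes did not overlap and stood in the order TM, DM, WT. Car12 fell by 1.10 ± 0.05 in TM MEFs (adjusted p = 7.31e-09), was at -0.46 ± 0.05 in DM MEFs (adjusted p = 2.2e-05), and was lower in TM than in DM MEFs by -0.64 ± 0.05 (adjusted p = 1.55e-06). Car9 lay below the median of every array (7.62 to 7.72), where a difference is hard to read, and was at -0.31 ± 0.07 in TM and 0.04 ± 0.07 in DM MEFs.

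The glycogen genes did not pass the fold limit in any comparison. Gys1, glycogen synthase, was at -0.34 ± 0.06 in TM and -0.12 ± 0.06 in DM MEFs against WT. Gbe1, the branching enzyme, was at -0.52 ± 0.09 in TM and -0.07 ± 0.09 in DM MEFs, and its TM difference reached -0.60 without WT replicate 3. Ppp1r3c, which targets a phosphatase to glycogen, lay below the median of every array and was at 0.19 ± 0.07 in TM and 0.13 ± 0.07 in DM MEFs.

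Among genes that act on mitochondria, Bnip3, a receptor for their removal by autophagy, fell most. Bnip3 was at 10.34, 10.20 and 10.40 in TM MEFs, 11.10, 11.12 and 11.11 in DM MEFs and 11.70, 11.79 and 11.71 in WT MEFs. Again the genotypes did not overlap and ran from TM through DM to WT. It was 2.69-fold lower in TM than in WT MEFs (-1.43 ± 0.06, adjusted p = 2.14e-09) and 1.74-fold lower in TM than in DM MEFs (-0.80 ± 0.06, adjusted p = 6.35e-07). In DM MEFs it fell by 0.63 ± 0.06 (adjusted p = 4.8e-06), a call that its other probe set (-0.44) and quantile (-0.53) or cyclic loess (-0.54) normalization did not give. Bnip3l, its paralog, differed by -0.02 ± 0.05 in TM and 0.06 ± 0.05 in DM MEFs. Ak4, a mitochondrial adenylate kinase, was at 9.77, 9.72 and 9.93 in TM MEFs, 10.93, 11.45 and 10.99 in DM MEFs and 10.81, 10.77 and 10.77 in WT MEFs. The TM arrays lay about 1 log2 unit below the rest, and the DM arrays lay above the WT arrays. Ak4 fell by 0.98 ± 0.11 in TM MEFs against WT (adjusted p = 2.52e-05), was at 0.34 ± 0.11 in DM MEFs (adjusted p = 0.0354), and was lower in TM than in DM MEFs by -1.31 ± 0.11 (adjusted p = 1.85e-06). Its other probe set gave -0.68 ± 0.06 in TM MEFs (adjusted p = 1.15e-06) and -0.05 ± 0.06 in DM MEFs (adjusted p = 0.578). Higd1a, which associates with the respiratory chain, was at -0.42 ± 0.07 in TM and -0.32 ± 0.07 in DM MEFs, and at -0.24 ± 0.12 and 0.15 ± 0.12 with its other probe set.

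In DM MEFs all 4 genes of secreted factors fell against WT, where 5.67% of all genes fell. Of the 4, 3 were higher in TM than in DM MEFs, where 4.68% of all genes were higher. Both comparisons share the DM arrays, so low DM values enter both counts. Adm encodes adrenomedullin, a peptide that dilates blood vessels. It was at 9.82, 9.59 and 9.71 in TM MEFs, 7.27, 7.30 and 7.08 in DM MEFs and 7.80, 8.09 and 7.89 in WT MEFs. The TM arrays lay far above all others and the DM arrays below WT. Adm was 3.43-fold higher in TM than in WT MEFs (log2 difference 1.78 ± 0.09, adjusted p = 7.71e-09), 1.64-fold lower in DM than in WT MEFs (-0.71 ± 0.09, adjusted p = 3.63e-05) and 5.61-fold higher in TM than in DM MEFs (2.49 ± 0.09, adjusted p = 3.68e-10). Stc1, which encodes the glycoprotein hormone stanniocalcin, was at 9.04, 9.05 and 9.04 in TM MEFs, 8.05, 7.95 and 7.92 in DM MEFs and 9.60, 9.63 and 9.70 in WT MEFs. The DM arrays were lowest and the genotypes did not overlap. It was 3.18-fold lower in DM than in WT MEFs (-1.67 ± 0.06, adjusted p = 2e-10) and 2.10-fold higher in TM than in DM MEFs (1.07 ± 0.06, adjusted p = 1.82e-08). The fall in TM MEFs, by 0.60 ± 0.06 (adjusted p = 3.99e-06), was close to the fold limit and was not called without WT replicate 3 (-0.57) or after quantile (-0.58) or cyclic loess (-0.55) normalization.

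Stc2, the paralog of Stc1, was at 9.03, 8.82 and 8.71 in TM MEFs, 8.17, 7.79 and 7.82 in DM MEFs and 8.82, 8.96 and 8.74 in WT MEFs. TM and WT arrays overlapped, and the DM arrays lay below both. Stc2 fell in DM MEFs by 0.91 ± 0.11 (adjusted p = 2.4e-05), differed by 0.01 ± 0.11 in TM MEFs (adjusted p = 0.946) and was 0.93 ± 0.11 higher in TM than in DM MEFs (adjusted p = 2.68e-05). Vegfa, the main growth factor of blood vessels, was at 10.90, 10.93 and 10.95 in TM MEFs, 10.64, 10.66 and 10.50 in DM MEFs and 11.29, 11.34 and 11.43 in WT MEFs. Both mutants lay below WT, DM further than TM. Vegfa fell in DM MEFs by 0.75 ± 0.06 (adjusted p = 9.57e-07), and its TM difference of -0.42 ± 0.06 (adjusted p = 0.000179) was inside the fold limit.

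Ndrg1, a gene of differentiation and stress that restrains growth, fell in TM and in DM MEFs. It was at 10.23, 10.20 and 10.01 in TM MEFs, 10.24, 10.30 and 9.99 in DM MEFs and 11.54, 11.54 and 11.46 in WT MEFs. Both mutants lay over 1 log2 unit below WT and overlapped each other. Ndrg1 fell by 1.36 ± 0.08 in TM MEFs (adjusted p = 6.69e-08) and by 1.34 ± 0.08 in DM MEFs (adjusted p = 7.16e-08), with -0.03 ± 0.08 between TM and DM MEFs (adjusted p = 0.842). Mxi1, a repressor that opposes MYC, was at 8.92, 8.75 and 8.76 in TM MEFs, 9.28, 9.28 and 9.28 in DM MEFs and 9.62, 9.66 and 9.65 in WT MEFs. The genotypes did not overlap, with TM lowest. Mxi1 fell by 0.83 ± 0.06 in TM MEFs (adjusted p = 2.6e-07) and was at -0.36 ± 0.06 in DM MEFs (adjusted p = 0.000355). Ddit4, an inhibitor of mTORC1, was on the other side of WT in TM MEFs, at 0.39 ± 0.06, and at -0.03 ± 0.06 in DM MEFs. Ankrd37, which encodes an ankyrin repeat protein, was at -0.52 ± 0.07 in TM and -0.53 ± 0.07 in DM MEFs. Tfrc, the transferrin receptor that brings iron into cells, was at -0.46 ± 0.08 in TM and -0.26 ± 0.08 in DM MEFs. The last 3 genes stayed inside the fold limit in every comparison.

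**Figure D3:**
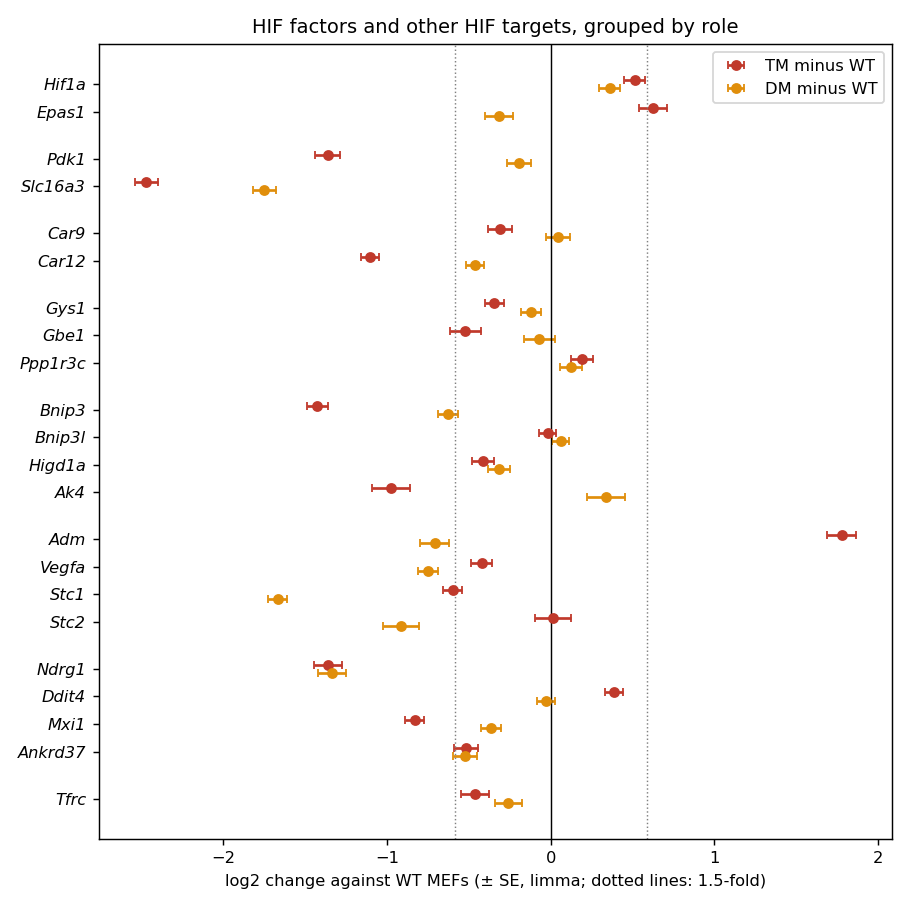
Log2 difference from WT (x axis, ± SE from limma) of the 2 HIF factors and 20 other targets grouped by role, TM above DM for each gene; dotted lines mark 1.5-fold. Slc16a3 lies furthest left in both mutants (-2.47 in TM, -1.75 in DM), and Adm lies to the right in TM (1.78) and to the left in DM (-0.71).

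Glycolysis was set against the other targets as the median over each list of a gene's difference from its WT mean, taken on each array. For glycolysis this was -0.41, -0.48 and -0.52 on the TM arrays, -0.16, -0.29 and -0.17 on the DM arrays and -0.04, 0.03 and -0.02 on the WT arrays. For the other targets it was -0.48, -0.55 and -0.45 on the TM arrays, -0.32, -0.41 and -0.32 on the DM arrays and 0.00, 0.01 and -0.02 on the WT arrays. On both lists the mutant arrays lay below the WT arrays and the TM arrays below the DM arrays. The gap, glycolysis minus other targets, was 0.03 ± 0.08 in TM, 0.14 ± 0.03 in DM and -0.01 ± 0.03 in WT MEFs (SD over 3 arrays). The medians were therefore alike in TM MEFs, and in DM MEFs the median of glycolysis was shifted less. Calls and spread were not alike in TM MEFs. There 2 of 13 glycolytic genes and 8 of 20 other targets fell, where 3.56% of all genes fell. Differences from WT ran from -1.19 to 0.05 in glycolysis and from -2.47 to 1.78 in the other targets. With the other probe set for the genes that have one on their own chromosome, the DM gap between the fitted medians was 0.06 in place of 0.13, and after quantile or cyclic loess normalization it was 0.21. These are descriptions of lists, with no test.

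**Figure D4:**
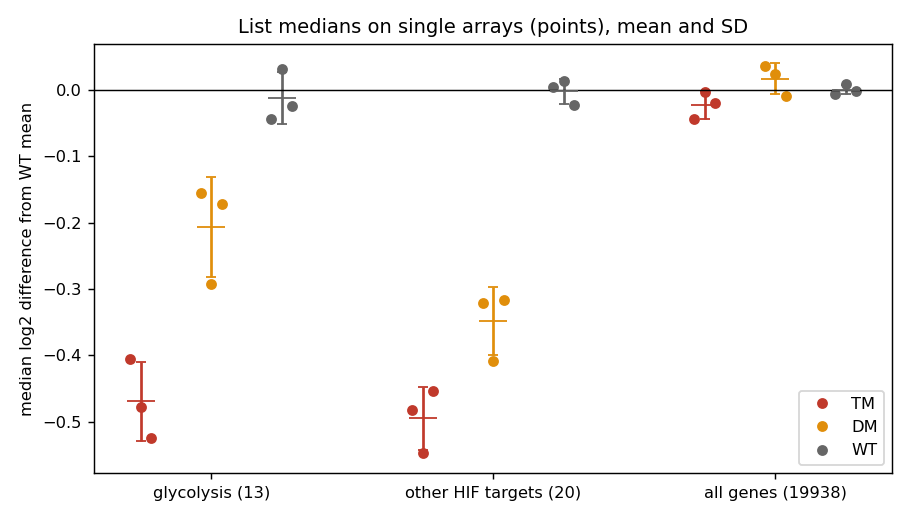
Median over a list of the log2 difference from each gene's WT mean (y axis), for glycolysis, the other HIF targets and all genes, with TM left, DM in the middle and WT right; points are arrays and bars the mean and SD of 3. The TM means are -0.47 for glycolysis and -0.50 for the other targets, the DM means -0.21 and -0.35, and all genes lie near 0.

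The readings of 8 genes depended on a choice among several probe sets. For 7 of them (Hk1, Pgk1, Pgam1, Ak4, Bnip3, Bnip3l and Higd1a) the brightest probe set lies, in the order of probe set numbers, among probe sets of another chromosome, whereas 96.8% of named probe sets lie among those of their own. Read from the probe set on their own chromosome, Pgk1, Pgam1 and Bnip3l kept their values within 0.06 log2 units in either mutant against WT. Hk1 differed most in TM MEFs, and Ak4 and Higd1a changed sign in DM MEFs.

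**Figure D5:**
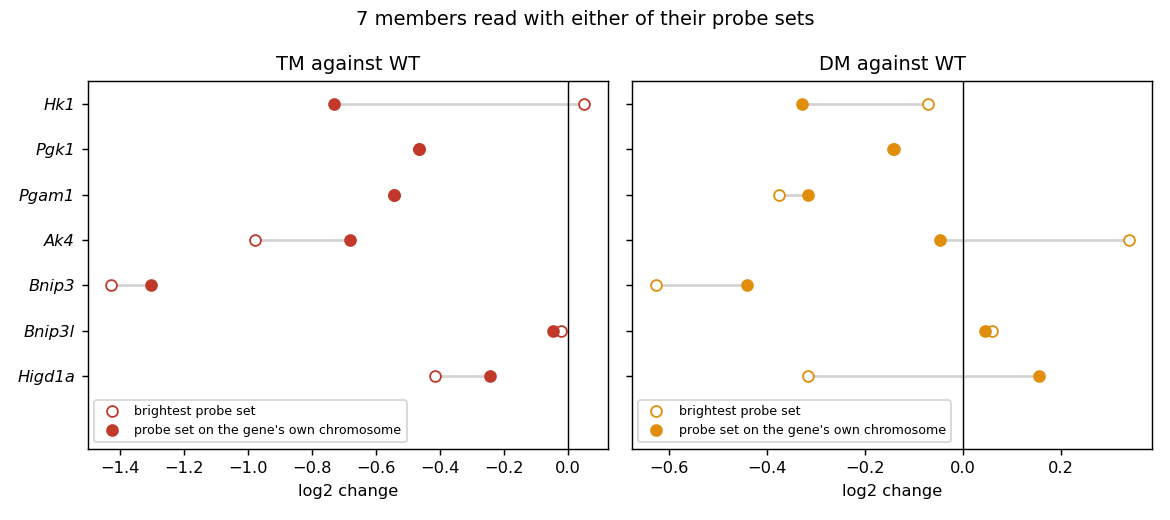
Log2 difference from WT (x axis) of 7 genes in TM (left) and DM MEFs (right), read from the brightest probe set (open) and from the probe set on the gene's own chromosome (filled). Hk1 is at 0.05 (open) and -0.73 (filled) in TM MEFs, and Ak4 at 0.34 (open) and -0.05 (filled) in DM MEFs.

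Genes outside the list that sense oxygen were compared next. Of 11, 2 fell (18.18%) and 1 rose (9.09%) in TM MEFs, where 3.56% of all genes fell and 5.59% rose. In DM MEFs 2 fell and 1 rose against WT, where 5.67% of all genes fell and 5.28% rose. Egln1 and Egln3 encode prolyl hydroxylases that mark the HIF α subunits and are HIF targets themselves. Egln1 fell by 0.72 ± 0.06 in TM MEFs (adjusted p = 6.08e-07) and was at -0.24 ± 0.06 in DM MEFs (adjusted p = 0.0055). Egln3 fell by 0.70 ± 0.07 in TM MEFs (adjusted p = 5.79e-06) and was at -0.57 ± 0.07 in DM MEFs (adjusted p = 3.01e-05). Arnt2, a relative of the HIF partner ARNT best known from neurons, rose by 1.497 ± 0.060 in TM and 1.21 ± 0.06 in DM MEFs (adjusted p = 9.71e-10 and 6.67e-09). In DM MEFs Cited2, which competes with HIF for its coactivator, fell by 0.73 ± 0.06 (adjusted p = 4.62e-07), and Siah2, a ubiquitin ligase for prolyl hydroxylases, fell by 0.64 ± 0.06 (adjusted p = 1.59e-06).

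Among 14 measured enzymes and carriers of glucose and lactate outside the list, 1 fell and 1 rose in TM MEFs (7.14% each). Over all genes 3.56% fell and 5.59% rose there, so these counts were near the background. In DM MEFs 1 fell (7.14%) and 2 rose (14.29%), where 5.67% of all genes fell and 5.28% rose. The glucose transporter gene Slc2a1 fell by 0.67 ± 0.06 in TM MEFs (adjusted p = 3.77e-06) and was at -0.51 ± 0.06 in DM MEFs (adjusted p = 3.79e-05), while Slc2a3, another glucose transporter, fell by 0.63 ± 0.06 in DM MEFs (adjusted p = 4.66e-06) and was at -0.38 ± 0.06 in TM MEFs. Pdk4, a relative of Pdk1 that is induced by fasting, rose by 2.94 ± 0.05 in TM and 2.82 ± 0.05 in DM MEFs (adjusted p = 1.29e-12 and 1.02e-12). It was at 10.61, 10.53 and 10.63 in TM MEFs, 10.45, 10.50 and 10.45 in DM MEFs and 7.64, 7.68 and 7.64 in WT MEFs. The mutants lay nearly 3 log2 units above WT, the opposite direction to Pdk1 in TM MEFs. Pdk2 rose in DM MEFs by 0.66 ± 0.07 (adjusted p = 5.57e-06) and was at 0.49 ± 0.07 in TM MEFs. Ldhb was higher in TM than in DM MEFs, by 0.67 ± 0.10 (adjusted p = 0.000246). Gapdh and Eno1 have no probe set annotated to them alone and were not read.

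Of 21 measured HIF targets outside the list, 5 fell (23.81%) and 4 rose (19.05%) in TM MEFs, where 3.56% of all genes fell and 5.59% rose. In DM MEFs 3 fell (14.29%) and 4 rose (19.05%), where 5.67% of all genes fell and 5.28% rose. The fall of Ero1a lies in a mutated gene. Bhlhe40, a transcription repressor, fell by 1.31 ± 0.08 in TM and 0.72 ± 0.08 in DM MEFs (adjusted p = 3.3e-08 and 7.98e-06). Lox, which crosslinks collagen, rose by 1.38 ± 0.06 in TM and 1.06 ± 0.06 in DM MEFs (adjusted p = 2.67e-09 and 3.14e-08). Edn1 rose by 0.61 ± 0.07 in TM and 1.26 ± 0.07 in DM MEFs (adjusted p = 3.11e-05 and 3.38e-08). Angptl4 rose by 1.00 ± 0.07 in DM MEFs (adjusted p = 2e-07) and was at 0.38 ± 0.07 in TM MEFs. Errfi1 fell by 0.78 ± 0.07 in DM MEFs (adjusted p = 1.18e-06) and was at -0.02 ± 0.07 in TM MEFs. Igfbp3, a carrier of insulin-like growth factors, rose by 1.30 ± 0.08 in TM MEFs (adjusted p = 5.55e-08) and was at -0.49 ± 0.08 in DM MEFs, the same sides of WT as Adm. Plod2, which hydroxylates collagen lysines, was lower in TM than in DM MEFs by -0.80 ± 0.06 (adjusted p = 8.41e-07), and P4ha1, a collagen prolyl hydroxylase, was at -0.40 ± 0.06 in TM and 0.08 ± 0.06 in DM MEFs against WT. The median over these 21 genes was -0.28 in TM and 0.12 in DM MEFs.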

How the data were processed

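RNA of 9 MEF samples, 3 per genotype, was hybridised by the authors to Affymetrix Gene ST 1.0 arrays. The deposited table gives a log2 value for each probe set on each array. Its processing is described as RMA (version not stated), which corrects the background, normalizes between arrays and summarises probes; a fold change is therefore a difference of log2 values. The array median was 7.62 to 7.72, and the number of arrays limits the precision. Of 35556 probe sets, 21789 were annotated to 1 gene symbol, 1621 to several, and 12146 are unnamed here; the brightest of a gene's probe sets was kept, which gave 19938 genes. Genotypes were compared with limma 3.58.1 in R 4.3.3, in 1 model of all 9 arrays with genotype as the only term and 6 residual degrees of freedom, with Benjamini-Hochberg adjustment over all genes; the program was tested on simulated data. Errors after ± are standard errors unless marked SD. The 1.5-fold limit follows the methods, which also required it with values from a second algorithm, PLIER, not analysed here.

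The genes and the lists were chosen with earlier results of these data known. All 36 genes were to be accounted for; Hif1a, Epas1 and, per comparison, the 10 called genes with the largest difference were given per array, with up to 4 called genes of each other list and Slc2a1, Egln1, Egln3, P4ha1, Gapdh, Eno1 and Ero1a. Pdk4 was given per array after its values were seen. Promoters come from RefSeq, GRCm38.p6. The probe set on a gene's own chromosome was found from its 10 neighbours on each side in number order and was chosen after seeing the data. Alternatives were other normalizations, fold limits, probe set choices, variance models, Student's t-test (the methods give a p limit for the arrays but name no test), a block on replicate number and leaving out each array.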

Additional observations from a re-analysis of the deposited data

Results flagged for a closer look

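Epas1, Adm and Ak4 lay on opposite sides of WT in the mutants, and the difference between the mutants itself passed the test. Epas1 was 0.94 higher in TM than in DM MEFs on the log2 scale (adjusted p = 2.87e-06), with all 3 TM arrays above and all 3 DM arrays below WT. Adm was 2.49 higher in TM than in DM MEFs (adjusted p = 3.68e-10), with the same arrangement of the arrays. Ak4 differed by -1.31 between TM and DM MEFs (adjusted p = 1.85e-06), with the TM arrays below and the DM arrays above WT; read from its other probe set the difference was -0.63 (adjusted p = 2.49e-06) and the DM level was at -0.05 against WT, so the opposite direction rests on the brightest probe set.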

How the results depend on the processing

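The 105 results for single genes (35 genes in 3 comparisons) were compared by call, and by direction where there was a call. All were kept with trended and robust variances, array weights, a fit of only the 6 arrays compared, and Student's t-test with or without adjustment. The filter on dim probe sets left 99 of them, all unchanged. Replicate numbers did not pair the arrays (correlations of same-numbered arrays from -0.24 to 0.17), and a block on replicate number changed 0 of the 105 calls. With median centring, Epas1 lost its call in TM MEFs (0.57), Pgam1 and Pkm gained one (-0.59 and -0.61), glycolysis had 4 falls in TM and 2 in DM MEFs, and medians were -0.54 for the other targets in TM MEFs, and -0.28 for glycolysis and -0.41 for the other targets in DM MEFs. In DM MEFs, Pfkl (-0.61) and Ankrd37 (-0.60) also passed. The DM median of glycolysis was -0.15 with quantile and -0.11 with cyclic loess normalization, where glycolysis minus other targets was 0.21 with either, and cyclic loess gave -0.43 for the other targets in TM MEFs. Quantile normalization let Ankrd37 pass in DM MEFs (-0.59), and cyclic loess ended the call of Aldoc between TM and DM MEFs (-0.57). Without the fold limit, glycolysis had 10 lower genes in TM and 7 in DM MEFs, and 8 lower in TM than in DM MEFs; the other targets had 3 higher and 15 lower in TM, 1 higher and 12 lower in DM, and 5 higher and 9 lower in TM than in DM MEFs. Over all genes without that limit, 18.0% were lower and 13.8% higher in TM MEFs, and 19.8% and 17.0% in DM MEFs. Between the mutants 3280 of 19938 genes (16.45%) were lower and 3070 higher in TM than in DM MEFs. With a 2-fold limit, glycolysis had 1 lower gene in TM MEFs and 0 higher and 0 lower in DM MEFs. Between the mutants glycolysis then had 0 higher and 0 lower. The other targets had 5 lower in TM, 3 lower in DM and 2 lower in TM than in DM MEFs. The share over all genes at the 2-fold limit is not given here. The mean of a gene's probe sets, or the set on its own chromosome, gave a median of -0.21 for the other targets between TM and DM MEFs. The mean of probe sets turned glycolysis minus other targets between TM and DM MEFs to 0.0075 (-0.05 as reported), and its range with 1 array left out was -0.11 to 0.020, the last without TM replicate 3. The set on the own chromosome gave 0.060 for glycolysis minus other targets in DM MEFs and turned Hk1 to -0.73 in TM MEFs. With 1 array left out, medians in TM MEFs ran from -0.48 to -0.40 for glycolysis and -0.54 to -0.44 for the other targets, and between TM and DM MEFs from -0.25 to -0.13 and -0.20 to -0.12. Pkm gained a call in TM MEFs without TM replicate 1 (-0.61), TM replicate 2 (-0.59) or WT replicate 1 (-0.61). ACGTG alone was in 53.2% of the promoter windows. The cause of these differences was not tested. Car9 and Ppp1r3c lie below the array medians, which limits what their values can show.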

Other observations

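The pathways beside glycolysis had few calls, near the share over all genes. Of 11 measured genes of gluconeogenesis and the pentose phosphate pathway, 0 were called in TM MEFs against WT, where 3.56% of all genes fell and 5.59% rose. The count was 0 also by unadjusted p with the same fold limit, and by Student's t-test. By adjusted p alone 4 were lower and 2 higher (background 18.0% and 13.8%). Rpia, which interconverts pentose phosphates, fell in DM MEFs by 0.59 ± 0.08 (adjusted p = 8.98e-05), where 5.67% of all genes fell. Between the mutants Pck2, the mitochondrial enzyme that makes phosphoenolpyruvate, was 0.63 ± 0.06 higher in TM than in DM MEFs (adjusted p = 6.06e-06), and Pgd, which feeds the pentose pathway, was lower by -0.61 ± 0.09 (adjusted p = 0.000194). Against WT, Pgd was at -0.50 ± 0.09 in TM and 0.11 ± 0.09 in DM MEFs.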
